A study of Mus musculus with 9 samples.

Results

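The 10 genes described here encode enzymes that make, break down and interconvert threonine, glycine and serine and pass their carbon to folate: Tdh, Gcat, Gldc, Amt, Phgdh, Psat1, Psph, Shmt1, Shmt2 and Mthfd2. They were chosen by symbol, and all 10 were present among the 23453 genes of the count table. The libraries were 2 × 150 bp paired-end bulk RNA-seq of wild-type mouse cells in 3 states, with 3 libraries each. EpiLC, or epiblast-like cells, were naive embryonic stem cells cultured for 48 h in N2B27 with 1% KSR, Activin A and FGF2, which brings them towards the formative epiblast. aEpiLC, the anterior-like cells, had a further 24 h in N2B27 with 1% KSR and no added factor. pEpiLC, the posterior-like cells, had a further 24 h with Activin A and the WNT agonist CHIR99021, also with 1% KSR. Both later states therefore differ from EpiLC in time as well as in medium, and those cannot be told apart. They are culture models of the regions of the epiblast, not embryo tissue. The labels do not say whether the 3 libraries of a state came from separate cultures, so p-values measure the spread between these libraries, which may be technical.

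Threonine dehydrogenase, the product of Tdh, oxidises threonine in the mitochondrion, and the Gcat product completes the split into glycine and acetyl-CoA. Mouse embryonic stem cells are known for their use of this route and for their dependence on threonine. Serine is made from a glycolytic intermediate in 3 steps by the Phgdh, Psat1 and Psph products. The serine hydroxymethyltransferases Shmt1, in the cytosol, and Shmt2, in the mitochondrion, convert serine into glycine and hand its carbon to folate, and the glycine cleavage system, of which Gldc and Amt are part, releases a carbon from glycine in the same form. Mthfd2 oxidises the folate-bound carbon in the mitochondrion. Several of these genes are known targets of ATF4, the transcription factor of amino acid shortage.

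Tdh lies on chromosome 14 of GRCm38, on the minus strand at chr14:63492347-63509092. The pair of primers that the study designed for Tdh mRNA is shown because it marks a stretch of this mRNA on the genome. Only the sequences are used here.

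Tdh forward: gacaatgtgatcctatcagacataaggaag
Tdh reverse: ctgtagtgaaacagccagctgatac

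Both primers matched the protein-coding transcript Tdh-201, of 1881 bases and 9 exons, the forward primer in exon 4 and the reverse primer in exon 5. They bound a product of 143 bp that spans an intron, at chr14:63496052-63496999. Both also matched Tdh-205, annotated for nonsense-mediated decay, and Tdh-206, annotated as a retained intron, with a product of the same length.

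RefSeq promoter windows, from 250 bases before to 50 after a start site on GRCm38.p6, were matched for 9 of the 10 genes and gave 10 windows, since Psat1 has a second start site. The stretches before the start sites and outside annotated exons are shown for 4 of the 6 genes that fell in both later states. They are given on the strand of the gene and 5′ to 3′. Capitals mark CCAAT or its reverse complement ATTGG in Phgdh, Psat1 and Mthfd2, and GCATGCGC, read on both strands and overlapping itself, in Shmt2. The stretches lie at chr3:98339991-98340219 for Phgdh, chr19:15925060-15925309 for the first Psat1 start site, chr6:83317607-83317854 for Mthfd2 and chr10:127522445-127522694 for Shmt2, all on the minus strand. Those of Psat1 and Mthfd2 lie inside the annotated genes (chr19:15904678-15947337 and chr6:83305691-83325908), downstream of the annotated 5′ ends.

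Phgdh: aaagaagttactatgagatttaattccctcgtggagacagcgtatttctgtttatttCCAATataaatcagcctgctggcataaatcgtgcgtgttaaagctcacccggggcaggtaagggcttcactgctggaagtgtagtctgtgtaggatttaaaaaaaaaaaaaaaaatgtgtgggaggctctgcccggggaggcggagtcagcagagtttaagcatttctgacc
Psat1: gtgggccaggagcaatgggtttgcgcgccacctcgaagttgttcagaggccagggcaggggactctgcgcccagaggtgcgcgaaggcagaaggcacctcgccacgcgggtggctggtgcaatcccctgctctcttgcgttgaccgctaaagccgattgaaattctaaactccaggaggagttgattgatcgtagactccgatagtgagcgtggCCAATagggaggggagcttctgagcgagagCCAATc
Mthfd2: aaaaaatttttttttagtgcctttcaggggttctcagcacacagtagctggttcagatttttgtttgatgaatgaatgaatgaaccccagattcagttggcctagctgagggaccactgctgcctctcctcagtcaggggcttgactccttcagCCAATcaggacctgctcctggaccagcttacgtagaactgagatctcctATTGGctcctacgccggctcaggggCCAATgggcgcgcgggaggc
Shmt2: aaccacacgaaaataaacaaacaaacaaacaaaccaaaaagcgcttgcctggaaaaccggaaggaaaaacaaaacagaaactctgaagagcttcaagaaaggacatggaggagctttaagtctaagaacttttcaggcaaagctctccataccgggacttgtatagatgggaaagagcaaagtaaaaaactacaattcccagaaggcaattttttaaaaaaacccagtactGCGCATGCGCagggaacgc

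CCAAT, the letters bound by NF-Y, stood on either strand in 7 of the 10 windows, and in 37.4% of all 32851 promoter windows of the same length. GCATGCGC, the core letters of the NRF1 motif, stood in 1 of the 10, that of Shmt2, and in 2.71% of all windows. The E-box letters CACGTG stood in 1 of the 10, that of Gcat, and in 7.15% of all. TGATGNAA, the letters of the site bound by ATF4 with a C/EBP partner, stood in 0 of the 10 and in 3.97% of all, which says only that these letters are not in these windows. The motifs were chosen with the windows in view and are a description.

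The libraries held between 20560564 and 23417917 counts. The summed level of 5 epiblast genes (Pou5f1, Fgf5, Dnmt3b, Otx2 and Pou3f1), in CPM (counts scaled to a common library total), was 4010 to 4358 in EpiLC, 3790 to 3992 in aEpiLC and 1775 to 2959 in pEpiLC, where 1 of the 5 rose, 3 fell and Pou5f1 did not pass. Fgf5 rose from 77.4 to 90.4 CPM in EpiLC to 159 to 178 CPM in pEpiLC (adjusted p = 0.000151). Pou3f1 fell (log2 fold change -2.64, adjusted p = 0.00314), as did Otx2 (-0.42, adjusted p = 0.00376) and Dnmt3b (-1.09, adjusted p = 0.00932), the last at 744 CPM in the first pEpiLC library and 1595 and 1393 CPM in the others, against 2524 to 2822 CPM in EpiLC. T, which marks the primitive streak, was at 1.22 CPM or less in the EpiLC and aEpiLC libraries and at 1088, 204 and 219 CPM in pEpiLC replicates 1, 2 and 3. The first pEpiLC library stood apart. Of 15797 genes compared, 323 and 333 differed over 4-fold between it and replicates 2 and 3, against 66 between those replicates and 57 to 76 between any pair of EpiLC or aEpiLC libraries. Its Mixl1 level was 644 CPM against 37.3 and 35.9 CPM, and its Gata6 level, a marker of endoderm, 46.5 CPM against 0.0869 and 0.138 CPM. The summed level of 6 extraembryonic endoderm markers was 65.0 CPM in it and at most 3.52 CPM in the EpiLC and aEpiLC libraries, with Sox7 at or under 3 counts in every aEpiLC and pEpiLC library. The 3 anterior neural markers (Sox1, Pax6 and Sox2) summed to 56.8 to 67.5 CPM in EpiLC, 101 to 109 CPM in aEpiLC and 11.7 to 34.7 CPM in pEpiLC, with Pax6 at or under 3 counts in every pEpiLC library. Nearly all of that sum was Sox2. In aEpiLC against EpiLC, Sox2 and Pax6 rose (log2 fold changes 0.75 and 1.81, adjusted p = 2.5e-06 and 0.000279), while Sox1 did not pass (-0.32, adjusted p = 0.503). The 6 naive markers summed to 29.5 to 33.0 CPM in EpiLC, 15.8 to 15.9 CPM in aEpiLC and 23.0 to 27.3 CPM in pEpiLC. The 5 trophoblast markers summed to 18.8 to 24.7 CPM in EpiLC, 91.9 to 106.6 CPM in aEpiLC and 37.96 to 54.9 CPM in pEpiLC, with Elf5 at or under 3 counts throughout. Of these Krt8, a keratin, made up nearly all in aEpiLC (91.0, 104.0 and 106.0 CPM). The 5 fibroblast feeder markers in the table summed to between 13.4 and 24.2 CPM in all libraries, but did not move together. Dcn fell in both later states (log2 fold changes -1.89 and -4.64, adjusted p = 1.95e-05 and 8.1e-05), Col1a1 fell in pEpiLC (-0.94, adjusted p = 0.0106) and Col1a2 rose in both (0.78 and 2.03, adjusted p = 0.0227 and 0.00474). The part of other cells in the results was not tested. Where leaving out the first pEpiLC library changed a call or a direction, the value without it is given as well. In bulk RNA, fewer cells that express a gene and less RNA per cell cannot be told apart.

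All 10 genes passed the filter on low counts in every comparison. In aEpiLC against EpiLC, 2 rose and 8 fell at an adjusted p under 0.05 by edgeR's quasi-likelihood test. Of all 15301 genes tested, 24.0% were higher and 22.6% lower by the same rule. With a change of at least 2-fold as well, 1 gene rose (Tdh) and 2 fell (Shmt2 and Psph), where the background was 7.25% higher and 5.24% lower. The median log2 fold change was -0.54 over the 10 genes and 0.00 over all genes tested. In pEpiLC against EpiLC, 1 gene rose (Tdh), 6 fell and 3 did not pass, against 22.8% of all 15288 genes higher and 21.4% lower. The 2-fold limit left 1 higher and 2 lower (Mthfd2 and Psph), with 7.71% and 8.13% of all genes. The 2 lower rest on the first pEpiLC library: without it the falls of Shmt2 (-0.97), Psph (-0.92) and Mthfd2 (-0.77) all passed the test but were under 2-fold, and Tdh was the gene past that limit, where 7.05% of all genes were higher and 8.33% lower. With all 3 pEpiLC libraries the medians were -0.62 over the 10 and 0.02 over all genes. Both comparisons use the same 3 EpiLC libraries. The direct comparison of pEpiLC with aEpiLC called 2 genes, Shmt1 higher and Amt lower, against 6.28% of all 15198 genes higher and 9.30% lower. The larger of those changes, -0.50 for Amt, was under 2-fold, where 2.55% of all genes were higher and 4.74% lower by at least 2-fold, and the medians were -0.03 and 0.01.

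**Figure D1:**
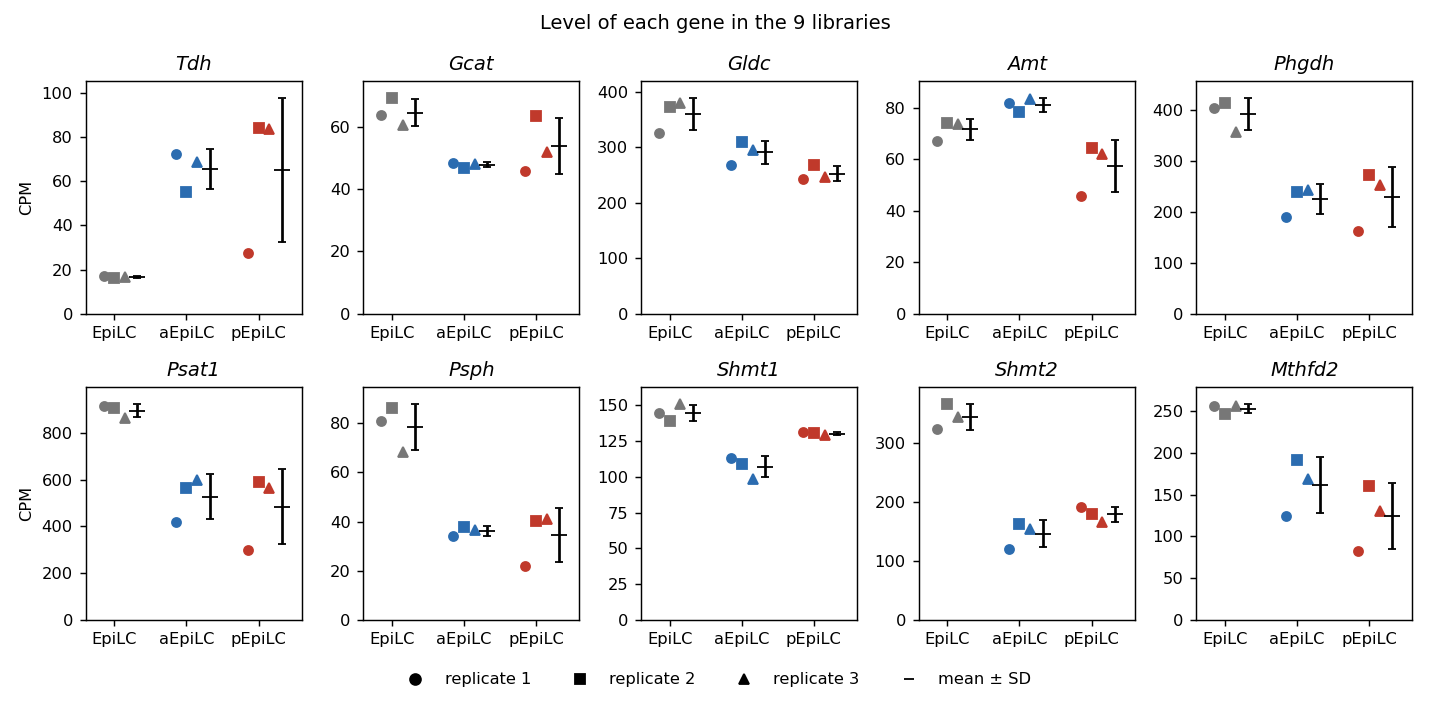
Level of the 10 genes in each of the 9 libraries, in CPM on a linear axis from 0, with symbols for replicates 1 to 3 of each state and the mean ± SD of 3 libraries beside them. Tdh was at 16.3 to 17.3 CPM in EpiLC and above that in every later library, while the serine synthesis genes, Shmt2 and Mthfd2 were below EpiLC in all 6.

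Tdh was the gene of the 10 that rose in both later states, close to 4-fold. Its level was 17.3, 16.3 and 16.7 CPM in EpiLC replicates 1 to 3 (mean 16.7 ± 0.525, SD, n = 3), the tightest of its 3 states. In aEpiLC it was 72.4, 55.3 and 68.8 CPM (65.5 ± 9.01, SD, n = 3), so every aEpiLC library lay above every EpiLC library. The log2 fold change was 1.97 (SE 0.0992, adjusted p = 8.45e-09, edgeR quasi-likelihood). In pEpiLC the levels were 27.7, 84.3 and 83.5 CPM (65.2 ± 32.5, SD, n = 3). The first library was at 0.329 times the mean of the other 2 and still above EpiLC. The log2 fold change from EpiLC was 1.98 (SE 0.380, adjusted p = 0.00511), and 2.35 (SE 0.0684, adjusted p = 1.85e-12) without pEpiLC replicate 1. Between pEpiLC and aEpiLC the log2 fold change was -0.01 (SE 0.366, adjusted p = 0.993). Without pEpiLC replicate 1 this turned to 0.36 (SE 0.101, adjusted p = 0.0238), so whether Tdh differs between the later states rests on that library. An antisense gene, Gm17232, overlaps 66 bp (2.52%) of the Tdh exons.

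Gcat, whose product acts on the product of Tdh, did not follow it. Its levels were 63.8, 69.2 and 60.6 CPM in EpiLC and 48.5, 46.9 and 48.2 CPM in aEpiLC, all lower. The fall was 0.43 on the log2 scale (log2 fold change -0.43, SE 0.0679, adjusted p = 0.000189). In pEpiLC the levels were 45.9, 63.6 and 51.9 CPM and overlapped those of EpiLC. The log2 fold change of -0.24 did not pass (SE 0.119, adjusted p = 0.139), and was -0.13 (adjusted p = 0.207) without pEpiLC replicate 1 and -0.38 (adjusted p = 0.0241) without replicate 2. Against aEpiLC it was 0.17 (adjusted p = 0.367), and 0.28 (adjusted p = 0.0459) without pEpiLC replicate 1. The annotation has 2 gene identifiers named Gcat that share 1132 bp of exon, and its expected counts were not whole (to within 1e-06) in any of the 9 libraries, so part of its reads was assigned by the estimate.

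Of the glycine cleavage genes, Gldc, which encodes the decarboxylase that starts the reaction, fell in both later states, and Amt, which encodes the aminomethyltransferase, moved differently. Gldc was at 326, 372 and 380 CPM in EpiLC, 268, 309 and 296 CPM in aEpiLC and 243, 268 and 247 CPM in pEpiLC. Every later library was below every EpiLC library. The log2 fold changes were -0.30 (SE 0.0727, adjusted p = 0.00392) in aEpiLC and -0.49 (SE 0.0738, adjusted p = 0.00197) in pEpiLC, the latter -0.46 (adjusted p = 4.19e-05) without pEpiLC replicate 1. The later states differed by -0.20 (adjusted p = 0.11). Amt was at 67.0, 74.2 and 73.6 CPM in EpiLC and 81.7, 78.2 and 83.3 CPM in aEpiLC. This rise of 0.18 on the log2 scale (SE 0.0649, adjusted p = 0.0343) was small, and the call was lost in 8 of 13 alternatives, with adjusted p between 0.0322 and 0.24. In pEpiLC Amt was at 45.6, 64.4 and 61.9 CPM, below EpiLC in all 3 but with a log2 fold change of -0.30 that did not pass (SE 0.128, adjusted p = 0.0928). Without pEpiLC replicate 1 this change was -0.16 (adjusted p = 0.0614). It passed with all 9 libraries in one fit (-0.32, adjusted p = 0.0389) and with the replicate block (-0.31, adjusted p = 0.0415). Amt was lower in pEpiLC than in aEpiLC by a log2 fold change of -0.50 (SE 0.125, adjusted p = 0.0348), and by -0.36 (adjusted p = 0.00375) without pEpiLC replicate 1. The call was lost without any 1 aEpiLC library or pEpiLC replicate 3, with adjusted p from 0.0585 to 0.122.

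The remaining parts of that system were Gcsh, the lipoyl carrier protein, and Dld, the dehydrogenase shared with pyruvate dehydrogenase. Gcsh fell in aEpiLC (log2 fold change -0.36, SE 0.0641, adjusted p = 0.000446) and rose in pEpiLC (0.18, SE 0.0539, adjusted p = 0.0302). The direct comparison of pEpiLC with aEpiLC gave 0.52 (SE 0.0679, adjusted p = 0.00304). Dld rose in both, by 0.24 (adjusted p = 0.00661) and 0.40 (adjusted p = 0.00246) on the log2 scale. The 4 genes of the system therefore did not move as one in either state.

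The 3 serine synthesis genes fell together in both later states. Their summed level was 1399, 1407 and 1287 CPM in EpiLC, 642, 841 and 877 CPM in aEpiLC and 484, 902 and 857 CPM in pEpiLC. Phgdh, the first and committing enzyme, was at 404, 414 and 356 CPM in EpiLC, 190.2, 239 and 243 CPM in aEpiLC and 162, 272 and 253 CPM in pEpiLC. Its log2 fold changes were -0.80 (SE 0.0890, adjusted p = 9.22e-06) in aEpiLC and -0.75 (SE 0.176, adjusted p = 0.0116) in pEpiLC. Psat1, the aminotransferase of the pathway, was at 914, 907 and 863 CPM in EpiLC. In aEpiLC it was at 418, 564 and 598 CPM (log2 fold change -0.76, SE 0.102, adjusted p = 4.75e-05). In pEpiLC it was at 300, 589 and 563 CPM (log2 fold change -0.86, SE 0.223, adjusted p = 0.0169). This last call was lost when any 1 EpiLC library was left out, with adjusted p from 0.0504 to 0.0587, while the log2 fold change stayed between -0.85 and -0.89. Psph, the phosphatase of the last step, fell over 2-fold in aEpiLC, and in pEpiLC over 2-fold with all 3 libraries but 1.89-fold without the first. Its levels were 81.1, 86.0 and 68.2 CPM in EpiLC, 33.9, 37.8 and 36.4 CPM in aEpiLC and 22.0, 40.4 and 41.2 CPM in pEpiLC. The log2 fold changes were -1.12 (SE 0.0865, adjusted p = 3.46e-07) and -1.16 (SE 0.224, adjusted p = 0.00531).

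For all 3 genes every later library was below every EpiLC library, and the first pEpiLC library was the lowest of the 9. It was at 0.617 times the mean of pEpiLC replicates 2 and 3 for Phgdh, 0.520 for Psat1 and 0.539 for Psph. Without it the log2 fold changes from EpiLC were -0.55 for Phgdh (adjusted p = 7.11e-06), -0.61 for Psat1 (adjusted p = 9.83e-08) and -0.92 for Psph (adjusted p = 9.17e-07), all smaller falls with less spread. Between pEpiLC and aEpiLC the log2 differences were 0.03 for Phgdh (SE 0.189), -0.12 for Psat1 (SE 0.249) and -0.06 for Psph (SE 0.218), and none passed. Without pEpiLC replicate 1 they were 0.23, 0.14 and 0.18, and none passed either (adjusted p = 0.115, 0.476 and 0.141). Psph shares 452 bp (10.4%) of its exons with Cct6a on the opposite strand, and the expected counts of Phgdh and Psph, like those of Gcat, were not whole in any library.

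**Figure D2:**
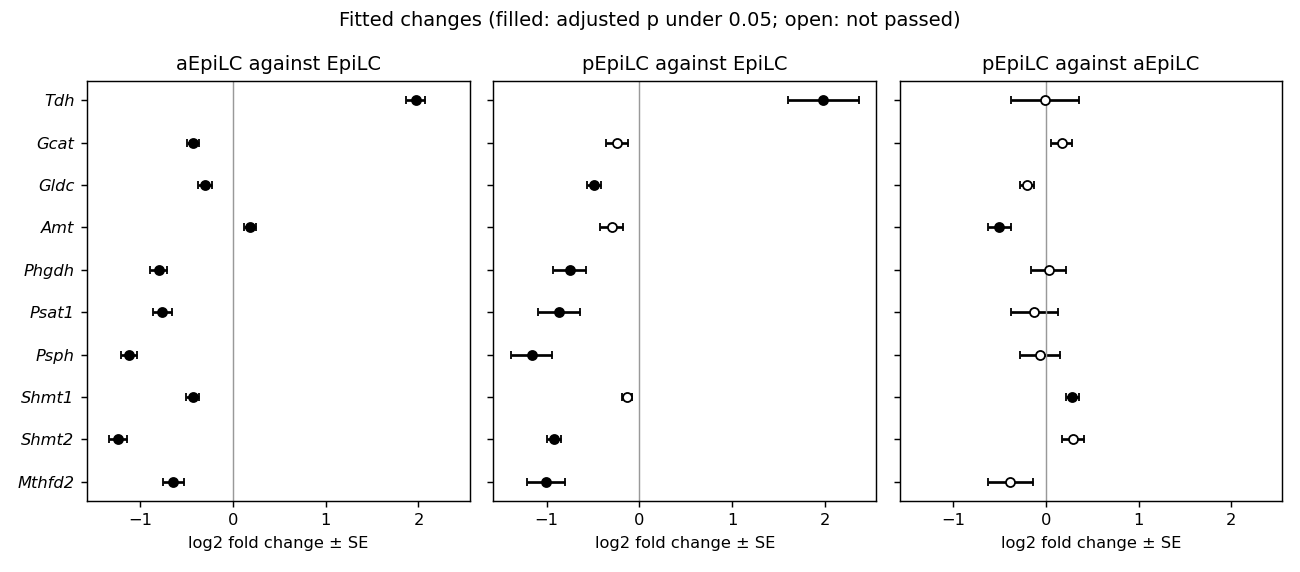
Log2 fold changes ± SE of the 10 genes from edgeR in the 3 comparisons, filled where the adjusted p was under 0.05. Tdh lies far to the right in the comparisons with EpiLC, at 1.97 and 1.98, and in pEpiLC against aEpiLC the 2 filled genes are Amt and Shmt1.

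Among the genes that move carbon from serine to folate, the mitochondrial Shmt2 fell over 2-fold in aEpiLC and close to it in pEpiLC. It was at 323, 365 and 344 CPM in EpiLC, 120.0, 163 and 155 CPM in aEpiLC and 191, 180 and 166 CPM in pEpiLC. The log2 fold changes were -1.23 (SE 0.0958, adjusted p = 3.58e-07) in aEpiLC and -0.92 (SE 0.0726, adjusted p = 0.00016) in pEpiLC. Shmt2 in pEpiLC replicate 1 was the highest of the 3 pEpiLC libraries, unlike the serine synthesis genes. All pEpiLC libraries lay above all aEpiLC libraries, yet the log2 difference of 0.29 did not pass (SE 0.118, adjusted p = 0.139).

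The cytosolic Shmt1 changed less. Its levels were 145, 139 and 151 CPM in EpiLC, 113, 109 and 98.8 CPM in aEpiLC and 131, 131 and 129 CPM in pEpiLC. It fell in aEpiLC (log2 fold change -0.44, SE 0.0657, adjusted p = 0.000131). In pEpiLC its log2 fold change was -0.13 (SE 0.0530, adjusted p = 0.0818), although the 3 libraries were below all EpiLC libraries. Shmt1 was higher in pEpiLC than in aEpiLC (log2 fold change 0.29, SE 0.0694, adjusted p = 0.032), and by 0.29 (adjusted p = 0.0172) without pEpiLC replicate 1. The call was lost without any 1 aEpiLC library, pEpiLC replicate 2 or pEpiLC replicate 3, with adjusted p from 0.0577 to 0.096.

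The ratio of Shmt2 to Shmt1 counts was 2.23, 2.62 and 2.28 in EpiLC, 1.06, 1.49 and 1.57 in aEpiLC and 1.45, 1.38 and 1.29 in pEpiLC. It was lower in every later library. The mean log2 ratio differed from EpiLC by -0.81 in aEpiLC and -0.79 in pEpiLC, each with p = 0.1 in a 2-sided exact permutation test, the smallest that 3 against 3 libraries can give. Without pEpiLC replicate 1 the latter difference was -0.84. Between pEpiLC and aEpiLC it differed by 0.02 (exact permutation p = 1), and leaving out aEpiLC replicate 1 or pEpiLC replicate 1 turned its sign.

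Mthfd2, which oxidises the folate-bound carbon and is known as an enzyme of growing and embryonic cells, fell in both states. It was at 256, 247 and 256 CPM in EpiLC, 125, 191 and 169 CPM in aEpiLC and 82.1, 160.3 and 131 CPM in pEpiLC. The log2 fold changes were -0.64 (SE 0.112, adjusted p = 0.000408) and -1.003 (SE 0.206, adjusted p = 0.00675), and the latter was -0.77 (adjusted p = 6.96e-07) without pEpiLC replicate 1. The later states differed by -0.38 (SE 0.243, adjusted p = 0.331), a value that ran from -0.15 without pEpiLC replicate 1 to -0.60 without replicate 2, and passed in neither. It passed with the replicate block (adjusted p = 0.0234).

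**Figure D3:**
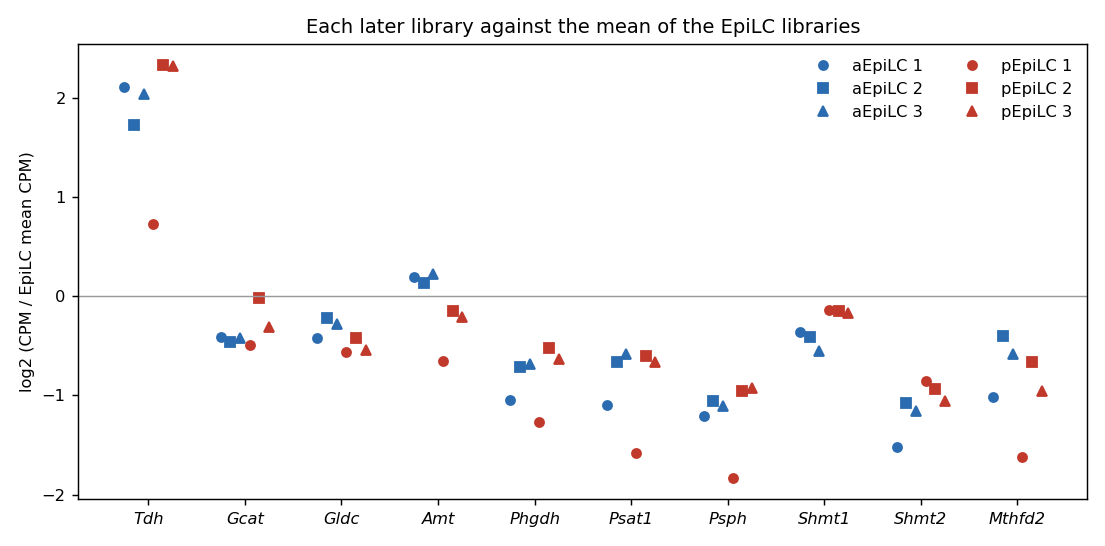
Log2 of each later library's CPM over the mean CPM of the 3 EpiLC libraries, for each of the 10 genes, with colours for the state and symbols for the replicate. The first pEpiLC library is the lowest pEpiLC library for 8 of the 10 genes and the highest for Shmt1 and Shmt2.

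The first pEpiLC library was the lowest of its state for 8 of the 10 genes, with ratios to the mean of the other 2 from 0.329 for Tdh to 0.943 for Gldc. Shmt1 (1.01) and Shmt2 (1.10) were the exceptions. The first aEpiLC library was likewise the lowest of its state for Gldc, Phgdh, Psat1, Psph, Shmt2 and Mthfd2, though not for Tdh, of which it had the highest level. The share of all genes for which these libraries were the lowest was not counted. These counts therefore cannot be read as particular to the 10 genes. Without pEpiLC replicate 1, the comparison with EpiLC called the same 7 genes, 1 higher and 6 lower, against 26.6% and 26.0% of all genes in that fit. The comparison with aEpiLC then had 3 higher (Tdh, Gcat and Shmt1) and 1 lower (Amt), against 8.81% and 12.8% of all 15485 genes tested.

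Levels of different genes were compared as CPM per kilobase of merged exon. In EpiLC the order was Psat1 (210.2), Phgdh (158), Shmt2 (111), Mthfd2 (72.6), Gldc (59.0), Shmt1 (37.3), Amt (29.4), Gcat (27.1), Psph (18.1) and Tdh (6.40). The libraries of 1 of the 9 neighbouring pairs overlapped, Amt and Gcat. Tdh therefore had the lowest level of the 10 in EpiLC and moved to 8th in aEpiLC (25.0 CPM per kilobase) and 7th in pEpiLC (24.9). In aEpiLC its libraries overlapped those of Shmt1 above it and not those of Gcat below it. In pEpiLC its libraries ran from 10.6 to 32.3 CPM per kilobase and overlapped those of Amt below it (18.7 to 26.4), and in replicate 1 Tdh lay below both Amt and Gcat. Psat1 and Phgdh kept the first 2 places in every state, although their libraries overlapped in pEpiLC. Gldc, Shmt2 and Mthfd2 could not be ordered in aEpiLC, at 47.8, 46.9 and 46.4 CPM per kilobase. Psph took the last place in both later states, at 8.33 and 7.97. Overlapping neighbours numbered 3 of 9 in aEpiLC and 5 of 9 in pEpiLC. With the length of the longest transcript, the places of Tdh, Psat1 and Phgdh were those given here. In EpiLC, Psph (27.26) and Gcat (27.23) then changed places, to 8th and 9th. In aEpiLC, Mthfd2, Gldc and Shmt2 then took the 3rd, 4th and 5th places.

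**Figure D4:**
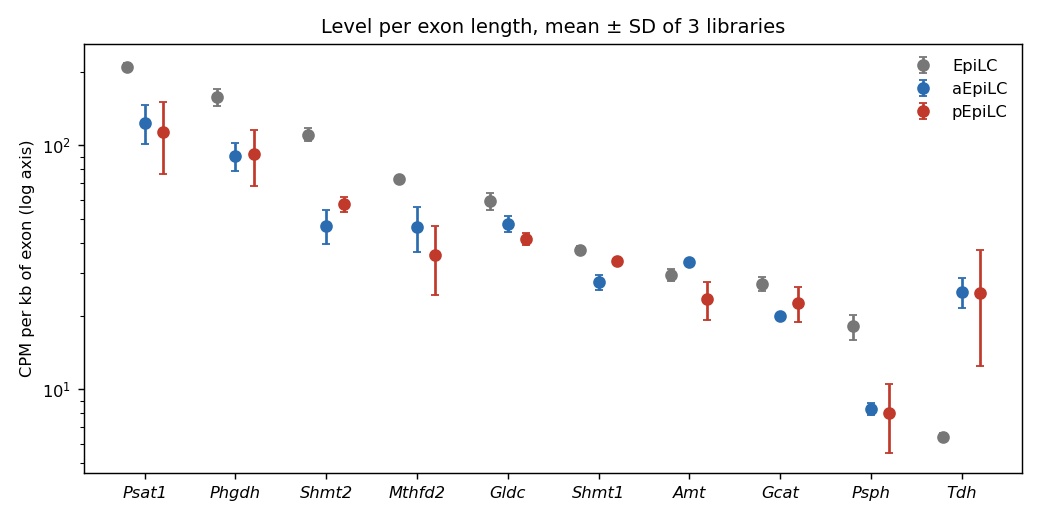
Mean ± SD (n = 3) of CPM per kilobase of merged exon for the 10 genes, ordered by their EpiLC level, on a log axis. Tdh is the lowest point in EpiLC, at 6.40, and lies near 25 in the later states, while the genes at the left fall.

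Over the 9 libraries, the Pearson correlation of log2 CPM with Tdh ran from -0.90 for Shmt2 to 0.15 for Amt. Among all 45 pairs of the 10 genes it ran from -0.90 to 0.98, with 7 pairs over 0.9. The 9 libraries share their 3 states and these values are descriptions. The 5 other genes most like Tdh, among 10717 genes with a mean of at least 5 CPM, were Kcnj3 (0.9884), Prxl2a (0.9805), Fem1b (0.9787), Casp8 (0.9759) and Hsd17b4 (0.9754). Kcnj3 encodes a potassium channel subunit, Casp8 an initiator caspase and Hsd17b4 an enzyme of peroxisomal fatty acid oxidation. Kcnj3 was at 19.3, 18.6 and 17.0 CPM in EpiLC, 52.8, 56.3 and 53.0 CPM in aEpiLC and 25.8, 59.8 and 64.0 CPM in pEpiLC. Like Tdh, it was low in the first pEpiLC library. Without that library the 5 correlations lay between 0.9746 and 0.9883, and the Spearman correlations over all 9 lay between 0.7167 and 0.9167.

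The other genes of these pathways comprised 37 genes in 5 lists, of which 35 were tested. In aEpiLC against EpiLC 6 rose and 17 fell, with a median log2 fold change of -0.19. In pEpiLC against EpiLC 7 rose and 13 fell (median -0.05), or 11 and 14 without pEpiLC replicate 1, where 26.6% of all 15699 genes tested were higher and 26.0% lower. All 20 calls with 3 libraries held in that fit, and 5 genes were added: Cbs, given with the transsulfuration genes, Ggh (log2 fold change 0.49, adjusted p = 0.032), Mthfd1 (0.14, adjusted p = 0.0226), Mthfd1l (-0.15, adjusted p = 0.0301) and Mthfd2l (0.43, adjusted p = 0.0358). In pEpiLC against aEpiLC 3 were higher and 4 lower (median 0.03), and without pEpiLC replicate 1 these 7 held and Mat2b was added (log2 fold change -0.23, adjusted p = 0.0388). The backgrounds with all 6 libraries are those given above for each comparison.

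Of 16 folate enzymes and carriers, 2 rose and 9 fell in aEpiLC and 1 rose and 7 fell in pEpiLC, the latter 4 and 8 without pEpiLC replicate 1. The cytosolic and mitochondrial forms of formyltetrahydrofolate dehydrogenase moved in opposite directions. Aldh1l1, the cytosolic form, was at 4.99, 5.56 and 5.84 CPM in EpiLC, 20.8, 13.7 and 16.0 CPM in aEpiLC and 23.9, 14.5 and 16.0 CPM in pEpiLC. It rose by 1.62 (SE 0.159, adjusted p = 2.97e-06) and 1.75 (SE 0.209, adjusted p = 0.000804) on the log2 scale. Aldh1l2, the mitochondrial form, was at 18.1, 19.7 and 17.2 CPM in EpiLC, 5.77, 9.0 and 7.40 CPM in aEpiLC and 1.81, 6.78 and 7.40 CPM in pEpiLC. Its log2 fold changes were -1.31 (SE 0.146, adjusted p = 9.75e-06) and -1.76 (SE 0.420, adjusted p = 0.0126), the latter -1.34 (adjusted p = 5.45e-07) without pEpiLC replicate 1. The later states did not differ past the threshold for either gene (adjusted p = 0.788 and 0.528), and the difference of 0.11 for Aldh1l1 turned to -0.14 (adjusted p = 0.609) without pEpiLC replicate 1.

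Mthfd2l, a paralogue of Mthfd2, rose in aEpiLC by 1.04 on the log2 scale (SE 0.131, adjusted p = 2.94e-05), where Mthfd2 fell. In pEpiLC against EpiLC its log2 fold change of 0.38 did not pass with all 3 libraries (adjusted p = 0.0978). It was lower in pEpiLC than in aEpiLC (log2 fold change -0.67, adjusted p = 0.0245). Folr1, a folate receptor, was at 6.67, 6.79 and 9.27 CPM in EpiLC, 3.99, 4.41 and 4.92 CPM in aEpiLC and 0.620, 0.912 and 1.19 CPM in pEpiLC, with no overlap between the states. Its log2 fold changes were -0.77 (adjusted p = 0.00247) in aEpiLC and -3.03 (adjusted p = 0.000276) in pEpiLC, and -2.28 (adjusted p = 0.00224) between pEpiLC and aEpiLC. Of the purine synthesis genes that use folate, Gart and Atic, both fell in aEpiLC and Gart fell in pEpiLC (log2 fold change -0.50, adjusted p = 0.00187).

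Of 10 genes of the methionine cycle and transsulfuration, 2 rose and 4 fell in aEpiLC, and 3 rose and 4 fell in pEpiLC, or 4 and 4 without pEpiLC replicate 1. Mtrr, the reductase that keeps methionine synthase active, fell in both by 0.89 (adjusted p = 1.76e-06) and 0.76 (adjusted p = 0.00224) on the log2 scale. Cbs, the first transsulfuration enzyme, which also uses serine, rose in aEpiLC (log2 fold change 0.68, adjusted p = 8.92e-06). In pEpiLC its log2 fold change of 0.37 did not pass (adjusted p = 0.0676), but it was 0.53 (adjusted p = 2.55e-05) without replicate 1. Gnmt, which methylates glycine, fell in pEpiLC (log2 fold change -1.31, adjusted p = 0.00428) and was lower there than in aEpiLC (-1.19, adjusted p = 0.0167). Cth, which follows Cbs, fell in aEpiLC by 0.28 (adjusted p = 0.0191) and in pEpiLC by 0.95 (adjusted p = 0.000154) on the log2 scale, and was lower in pEpiLC than in aEpiLC (-0.69, adjusted p = 0.00779). Ahcy, which clears S-adenosylhomocysteine, was at 431, 454 and 472 CPM in EpiLC, 337, 360 and 358 CPM in aEpiLC and 553, 541 and 509 CPM in pEpiLC. Ahcy fell in aEpiLC (log2 fold change -0.36, adjusted p = 0.000222), rose in pEpiLC (0.26, adjusted p = 0.00918) and differed between them by 0.60 (adjusted p = 0.00116).

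Of 7 genes for other uses of serine and glycine, 5 were tested, and 1 rose and 1 fell in each comparison with EpiLC. Sptlc2, a subunit of serine palmitoyltransferase, rose in aEpiLC by 0.20 (adjusted p = 0.0262) and in pEpiLC by 0.78 (adjusted p = 0.000273) on the log2 scale. Sptlc1, its partner subunit, fell in aEpiLC (log2 fold change -0.19, adjusted p = 0.0397), and Glyctk, a glycerate kinase, fell in pEpiLC (-0.74, adjusted p = 0.0339).

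**Figure D5:**
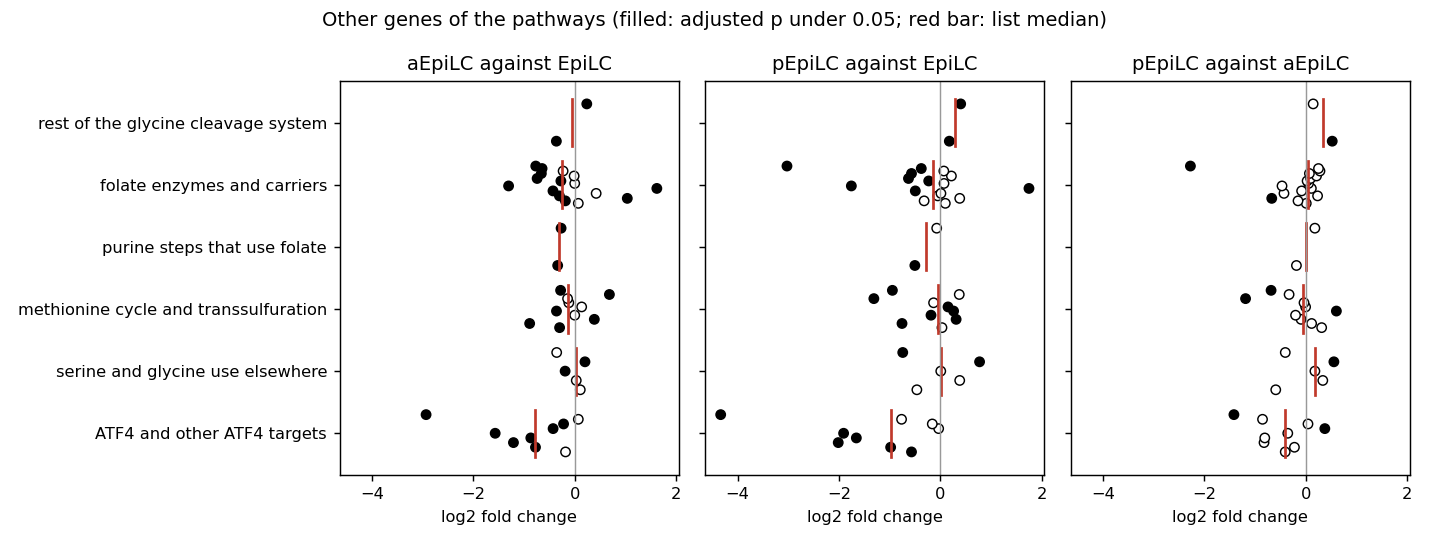
Log2 fold changes of the other genes of these pathways and of ATF4 with further targets, in the 3 comparisons. Each point is a gene, filled where the adjusted p was under 0.05, and the red bar is the median of the list, which for the ATF4 list was -0.78, -0.98 and -0.41 (the last -0.25 without pEpiLC replicate 1).

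Of Atf4 and 8 of its known targets outside these pathways, 7 of the 9 fell in aEpiLC and 6 in pEpiLC, or 7 without pEpiLC replicate 1, where Slc7a11 was added (log2 fold change -0.48, adjusted p = 0.00491), by edgeR, and the others did not pass. By the same rule 22.6% of all genes were lower in aEpiLC, 21.4% in pEpiLC and 26.0% without pEpiLC replicate 1. The median log2 fold changes were -0.78 and -0.98. Nupr1, a stress-induced chromatin protein, was at 29.8, 36.4 and 33.0 CPM in EpiLC, 2.49, 5.04 and 5.38 CPM in aEpiLC and 1.24, 1.87 and 1.70 CPM in pEpiLC (log2 fold changes -2.94 and -4.33, adjusted p = 8.93e-08 and 1.23e-05). Next in size were Ddit3, a stress-induced transcription factor, in aEpiLC (log2 fold change -1.57, adjusted p = 1.18e-05) and Trib3, a pseudokinase, in pEpiLC (-2.01, adjusted p = 0.00539). Ddit3 was at -1.91 in pEpiLC (adjusted p = 0.00023). Without pEpiLC replicate 1 their order turned, with Ddit3 at -1.80 (adjusted p = 1.85e-07) and Trib3 at -1.63 (adjusted p = 3.11e-09). Asns, asparagine synthetase, was at 319, 326 and 289 CPM in EpiLC, 142, 193 and 209 CPM in aEpiLC and 107, 182 and 177 CPM in pEpiLC. Its lowest library in each later state was the first, as for Phgdh and Psat1. Atf4 mRNA itself had a log2 fold change of -0.18 in aEpiLC that did not pass (adjusted p = 0.182) and fell in pEpiLC (-0.57, adjusted p = 0.0306, and -0.38, adjusted p = 0.001, without replicate 1). Between pEpiLC and aEpiLC, Ddit4 was higher (0.38, adjusted p = 0.0367) and Nupr1 lower (-1.42, adjusted p = 0.0293). ATF4 is controlled largely at translation, which was not measured here.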

How the data were processed

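Bulk RNA-seq of 9 libraries (3 states, 3 libraries each) was used. The authors aligned 2 × 150 bp reads to GRCm38 with STAR 2.7.9a and deposited 1 table of expected counts per gene from RSEM 1.3.1, with no normalisation. The annotation and strand setting are not given in the sources used here. An expected count shares reads that fit several genes by an estimate, so genes with overlaps or copies can hold part of each other's reads.

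Expected counts were rounded to whole numbers. Library totals ran from 20560564 to 23417917 (median 21675291), so 3 counts equal 0.13 to 0.143 CPM. CPM used TMM factors over 9 libraries. Each comparison was fitted on its own 6 libraries with edgeR 4.0.16 (R 4.3.3, limma 3.58.1): filterByExpr, TMM, glmQLFit and glmQLFTest without covariates, with Benjamini-Hochberg adjustment over all genes tested. Genes passed at an adjusted p under 0.05, and a second count also asked for a 2-fold change (log2 fold change of 1 or more in size). The script was tested on simulated data. SE is the log2 fold change over the square root of F. Log2 CPM for correlations had a prior count of 2. The Shmt2 to Shmt1 ratio was compared by a 2-sided exact permutation test. Exon lengths and overlaps were taken from GENCODE of the same build, and promoters from RefSeq GRCm38.p6.

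The text names all 10 genes, and from the pathway lists those that passed with the 2 largest absolute log2 fold changes in a comparison, those a result turns on, and the 5 genes most like Tdh. Some further genes of those lists (among them Dld, Atf4, Asns, Mtrr, Cbs, Sptlc1 and Glyctk) were named after their values were seen. The genes, lists and tests were chosen with earlier results of these data known. The alternatives were RLE scaling, other filters, DESeq2 1.42.0, edgeR's likelihood ratio test, all 9 libraries in one fit, a replicate block, and each library left out. The counts of the other lists, and of the 10 genes past 2-fold, without pEpiLC replicate 1 were added after seeing the data.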

Additional observations from a re-analysis of the deposited data

How the results depend on the processing

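Of the log2 fold changes of the 10 genes under 13 alternatives, 357 kept their direction and side of the threshold, 20 lost the call, 5 gained it and 8 turned direction, all 8 in pEpiLC against aEpiLC where none had passed. Of those 8, Tdh without pEpiLC replicate 1, also passed the test (adjusted p = 0.0238). Those were Tdh without aEpiLC replicate 1 (0.07), aEpiLC replicate 3 (0.03) or pEpiLC replicate 1 (0.36), Phgdh without aEpiLC replicate 1 (-0.07), pEpiLC replicate 2 (-0.11) or pEpiLC replicate 3 (-0.05), and Psat1 (0.14) and Psph (0.18) without pEpiLC replicate 1. The Shmt2 to Shmt1 difference between the later states turned to -0.16 without aEpiLC replicate 1 and -0.03 without pEpiLC replicate 1. Over the libraries left out in turn, these values ran from -0.23 to 0.36 for Tdh, -0.11 to 0.23 for Phgdh, -0.28 to 0.14 for Psat1, -0.21 to 0.18 for Psph and -0.16 to 0.12 for the ratio. Tdh kept its rise in both comparisons with EpiLC under all 13, from 1.90 to 2.08 in aEpiLC and 1.75 to 2.35 in pEpiLC.

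In aEpiLC against EpiLC, the 2 genes higher became 1 with the 2-fold limit, with DESeq2 and with all 9 libraries in one fit, and 1 to 2 when a library was left out, Amt being the gene lost, and the 8 lower became 2 with the 2-fold limit. In pEpiLC against EpiLC the 6 lower became 2 with that limit, 5 to 7 when a library was left out (5 without any 1 EpiLC library, Psat1 being lost, and 7 without pEpiLC replicate 2, Gcat being gained) and 7 with all 9 libraries in one fit (Amt gained, adjusted p = 0.0389). In pEpiLC against aEpiLC the 1 higher and 1 lower became 0 and 0 with it, and 0 to 3 higher and 0 to 1 lower when a library was left out. The cause of these changes was not tested. RLE scaling moved the median of all genes by less than 0.1 on the log2 scale.

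The labels do not say whether libraries with the same replicate number belong together. The correlations of deviations from the state means between same-numbered libraries ran from -0.0601 to 0.172, and 2 of 9 were over 0.1. Of the 9 libraries, 5 correlated best with their own number in both other states. Between pEpiLC and aEpiLC the same-number values were 0.172, 0.117 and 0.0622, and every different-number value was lower, at most 0.0578. Between aEpiLC and EpiLC the same-number values were 0.0211, -0.057 and -0.0601, below the highest different-number value of 0.0816. Whether the numbers pair the libraries was not tested. With the replicate block, 1 gene was higher and 8 lower in aEpiLC against EpiLC, 1 higher and 7 lower in pEpiLC against EpiLC (Amt gained, adjusted p = 0.0415), and 1 higher and 2 lower in pEpiLC against aEpiLC (Mthfd2 gained, -0.41, adjusted p = 0.0234).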
